A study of Homo sapiens with 6 samples.

Results

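The heat shock proteins and the DNAJ cochaperones of K562 cells are described here across 6 expression arrays. The genes were chosen by name: every probe set annotated with a single symbol that begins HSPA, HSPB, HSPD, HSPE, HSPH, HSP90A, DNAJA, DNAJB or DNAJC, together with BAG3, STIP1, AHSA1 and CHORDC1. HSPA5, DNAJB9, DNAJC3, HSPBAP1, HSPBP1, antisense genes and pseudogenes were left out of that rule. The rule used no measured value but was set with earlier results of these data known. It took 66 of 19775 genes, read by 159 probe sets. They were 26 DNAJC, 11 DNAJB and 4 DNAJA genes, 10 genes of the HSP70 family, 7 small heat shock proteins, both cytosolic HSP90 genes, HSPH1, the HSPD1 and HSPE1 pair, and the cochaperones BAG3, STIP1 and CHORDC1. Another 13 probe sets carry one of these names beside a second gene, among them those of HSPA1A, HSPA1B and HSPA8, and no value is given for those 3 genes. AHSA1 was not analysed here.

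HSP70 proteins bind exposed hydrophobic stretches of unfolded clients in cycles of ATP hydrolysis. The J domain of a DNAJ protein stimulates that hydrolysis, other parts of some DNAJ proteins deliver clients, and HSP110 proteins and BAG proteins release the ADP. HSP90 takes over clients such as kinases and steroid receptors through the adaptor STIP1, the HSPD1 and HSPE1 chaperonin folds proteins inside mitochondria, and small heat shock proteins hold unfolded clients without ATP. Many of the genes are induced together by the factor HSF1 when proteins unfold. In erythroid cells HSP70 is known for protecting GATA1 from cleavage.

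K562 is an established human cell line that was derived from chronic myeloid leukaemia. An siRNA, named RNAi8 in the labels, or a scrambled RNA was nucleofected at up to 200 nM, and all-trans retinoic acid (ATRA) or the solvent control DMSO was added 24 h later. The series concerns PRAME, a repressor of retinoic acid receptor signalling. Each of 3 independent experiments held 1 siRNA array and 1 scrambled array. ATRA was given in experiments 1 and 3 and DMSO in experiment 2. The siRNA and the scrambled RNA thus had 3 arrays each, and DMSO was used in 1 experiment only. No array was of cells that had not been nucleofected.

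PRAME read 12.13, 12.14 and 12.10 with the siRNA and 13.00, 12.99 and 12.70 with scrambled RNA in experiments 1, 2 and 3, on the log2 scale of the deposited values. All 8 measured K562 markers lay at or above 6.00, the median of the probe sets' means, and genes below that median are called dim here, since their signal was not shown to be above background. Of the markers of other cells, 1 of 8 for T and NK lymphocytes, 2 of 5 for B lymphocytes, 3 of 6 for stroma and 5 of 6 for epithelium lay at or above it, with list medians of 5.61, 5.91, 5.90 and 10.36, and EPCAM, KRT8, KRT18 and KRT19 were the high ones among the last. Experiment 3 stood apart. Its arrays correlated at 0.979 to 0.982 with the others, against at least 0.996 among the arrays of experiments 1 and 2. The signal at the 3' end of actin exceeded that at the 5' end by 2.98 to 3.36 in experiment 3 and by 0.63 to 0.92 in the others, and for GAPDH by 0.74 to 1.20 against 0.03 to 0.08. Results that rest on experiment 3 are therefore given beside those of experiments 1 and 2.

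Of the 66 genes, 54 were bright, that is, at or above 6.00, and 12 dim. Bright genes near that cut, such as HSPB8 (mean 6.21), HSPA6 (6.28) and HSPB3 (6.63), were not shown to be above background either. The dim ones were HSPA2, HSPA12A, HSPB2, HSPB6, HSPB7, HSPB9, DNAJB5, DNAJB7, DNAJB8, DNAJC15, DNAJC22 and DNAJC28. Only 3 of the 7 small heat shock proteins were bright: HSPB1, HSPB3 and HSPB8. Each gene is represented by its brightest probe set, taken by the mean of all arrays. Probe sets differ in their affinity, so levels are compared between arrays and not between genes.

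The 3 promoters below are shown because they hold the full element that HSF1 binds, and one of the genes, CHORDC1, is among the members that were highest in experiment 3. Capitals mark GAANNTTCNNGAA on either strand, in RefSeq sequence of GRCh38.p14, written 5′ to 3′ in the gene's direction. The CHORDC1 stretch, chr11:90223067-90223129 on the minus strand, holds 3 overlapping matches. The DNAJB6 stretch is chr7:157336853-157336905 and the HSPA6 stretch chr1:161524446-161524498, both on the plus strand with 1 match each.
CHORDC1: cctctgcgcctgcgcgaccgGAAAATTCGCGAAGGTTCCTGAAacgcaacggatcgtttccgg
DNAJB6: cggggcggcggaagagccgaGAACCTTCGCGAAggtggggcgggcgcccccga
HSPA6: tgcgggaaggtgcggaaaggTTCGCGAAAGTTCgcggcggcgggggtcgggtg
The promoter table held 59 of the 66 genes. Within the 250 bases before the start, these 3 genes, 5.085% of the 59, held the element, against 120 of all 27305 promoters, or 0.439%. The shorter form TTCNNGAA, which lies inside the full element, occurred in 6 of the 59 promoters (10.169%) and in 6.72% of all, and GAANNTTC, which also lies inside it, in 9 (15.254%) and 5.849%. A match of letters is a description and not a measured binding site. Only exact matches before 1 start per gene were sought, so a gene without a match may still hold another form of the element. The 3 genes did not move alike. In experiment 3 CHORDC1 and DNAJB6 were higher than in experiment 1, by 0.75 and 0.49, while HSPA6 differed by 0.00 (95% interval -0.19 to 0.19).

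With the siRNA, no heat shock or DNAJ gene changed past the threshold. In limma, at an adjusted p of 0.05 over every tested gene, 0 of the 66 passed in either direction, as did 0 of all 19775 genes, and 0 of the 66 had an unadjusted p below that threshold (background 0.804% higher and 0.485% lower). Same-numbered arrays come from one experiment, and with the experiment as a replicate block 0 of the 66 passed again, against a background of 0.0101% higher and 0.0152% lower. The difference was above 0 for 43 of the 66 (65.2%, background 52.9%). In the paired fit 4 genes were higher at an unadjusted p below 0.05, or 6.06% beside a background of 3.40%, and 1 was lower, or 1.52% beside 3.01%. Among the 54 bright genes, the 95% intervals of the paired siRNA difference reached no further than -0.29 and 0.35. Fewer cells and less RNA per cell cannot be told apart in RNA of whole cultures.

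The 4 higher at that unadjusted level included DNAJA1 and DNAJB1, cytosolic HSP40 partners of HSP70. The cytosolic DNAJA2, with a paired difference of 0.05, was not among the 4. DNAJA1 read 11.49, 11.56 and 11.70 with the siRNA and 11.44, 11.52 and 11.39 with scrambled RNA in experiments 1, 2 and 3. Its siRNA arrays were higher in every experiment, by 0.06 in experiment 1, 0.05 in experiment 2 and 0.31 in experiment 3, and the groups overlapped. The paired difference was 0.14 ± 0.06 (SE, n = 3 pairs, limma adjusted p = 0.771). DNAJB1 read 8.79, 8.58 and 8.93 against 8.55, 8.53 and 8.81, and again the groups overlapped. Its paired difference was 0.14 ± 0.06 (SE, n = 3 pairs, limma adjusted p = 0.771). The second bright probe set of DNAJA1 gave -0.02 in experiment 2, and that of DNAJB1 gave -0.10 in experiment 3. Their paired differences were 0.13 and 0.05. DNAJC16, a membrane protein of the endoplasmic reticulum, differed by 0.14 and the dim DNAJC28 by 0.17. The gene lower at that level was the small heat shock protein HSPB3, by -0.14, with 6.49, 6.71 and 6.47 against 6.65, 6.80 and 6.65.

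The groups did not overlap for 2 genes. BAG3, the stress-induced partner of HSP70 and small heat shock proteins, read 10.07, 9.97 and 10.06 with the siRNA and 9.96, 9.95 and 9.95 with scrambled RNA. The lowest siRNA array lay 0.02 above its own scrambled array, and the difference of 0.08 ± 0.05 (SE, n = 3 pairs) missed the test. It was 1 of 66 genes with all siRNA arrays above all scrambled ones, or 1.52% beside a background of 2.00%. HSPA6, a strictly inducible HSP70, read 6.25, 6.25 and 6.17 against 6.33, 6.27 and 6.41. It was the only one of the 66 with all siRNA arrays below all scrambled ones, beside a background of 1.54%, and its difference of -0.12 ± 0.07 (SE, n = 3 pairs) missed the test too. Its second bright probe set read 6.19, 6.20 and 6.19 with the siRNA and 6.10, 6.24 and 6.14 with scrambled RNA, and on the mean of both the difference was -0.042.

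The other main chaperones missed the test with and without the block too. HSP90AB1, the constitutive HSP90, read 12.95, 12.89 and 13.21 with the siRNA and 12.86, 12.87 and 13.01 with scrambled RNA, a paired difference of 0.10 ± 0.05 (SE). HSP90AA1, the inducible HSP90, differed by 0.05, the mitochondrial HSP70 HSPA9 by 0.03, the HSP110 protein HSPA4 by 0.05 and the chaperonin HSPD1 by 0.06. Its partner HSPE1 differed by -0.10, with every siRNA array below the scrambled array of its own experiment. HSPB1 and STIP1 each differed by -0.01, CHORDC1 by 0.05 and HSPH1 by 0.11. HSPB8, which acts with BAG3, had the largest difference among the bright genes, 0.16 ± 0.09 (SE), and DNAJC17 the lowest, -0.14. DNAJC17 read 7.35, 7.59 and 7.27 with the siRNA and 7.54, 7.60 and 7.49 with scrambled RNA.

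**Figure D1:**
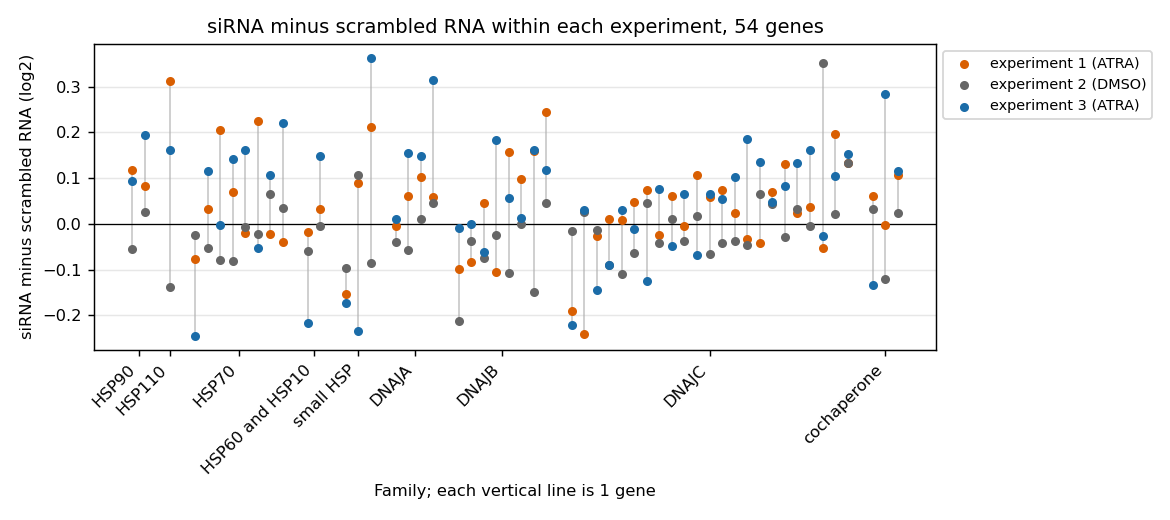
siRNA minus scrambled RNA (log2, vertical axis) within each experiment for the 54 bright genes, grouped by family along the horizontal axis, where each vertical line joins the 3 values of 1 gene. Values lie on both sides of 0 in most families, and the grey points of experiment 2 are above 0 for 19 of the 54 genes, the orange points of experiment 1 for 35 and the blue points of experiment 3 for 36.

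Taken by experiment, the siRNA differences were above 0 for 40 of the 66 genes in experiment 1 (60.6%, background 50.5%), for 24 in experiment 2 (36.4%, background 48.0%) and for 45 in experiment 3 (68.2%, background 50.2%). Among bright genes alone the backgrounds were 56.4%, 43.5% and 49.2%, beside members' shares of 64.8%, 35.2% and 66.7%. The median difference over the 66 was 0.04, -0.02 and 0.07, and over all genes 0.00 in each experiment, so the shares differed more than the sizes did. In all 3 experiments, 11 genes were above 0 (16.7%, background 13.1%): BAG3, DNAJA1, DNAJA3, DNAJB1, DNAJB5, DNAJC7, DNAJC16, DNAJC24, DNAJC28, DNAJC30 and HSP90AB1. Another 6 were below 0 in all 3 (9.09%, background 11.9%): DNAJB2, DNAJC17, DNAJC19, HSPA6, HSPB3 and HSPE1. These lists rest on the brightest probe set of each gene. On their second bright probe sets DNAJA1 was below 0 in experiment 2 and DNAJB1 in experiment 3.

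No gene had an siRNA effect that differed between ATRA and DMSO past the threshold. In limma 0 of the 66 passed with and without the replicate block, as did 0 of all genes. At an unadjusted p below 0.05, 1 of the 66, the dim DNAJB8, was higher without the block (background 0.334%) and 0 were lower (background 0.991%). With the block 4 were higher (6.06%, background 1.65%) and 1 lower (1.52%, background 1.66%). The effect under ATRA exceeded that under DMSO for 48 of the 66 genes (72.7%, background 51.0%). The siRNA difference was above 0 in both ATRA experiments and below 0 under DMSO for 15 of the 66 genes (22.7%, background 13.3%), all of them bright (27.8% of 54, background 16.1%). These were HSP90AA1, HSPA9, HSPA13, HSPB8, HSPD1, HSPH1, DNAJA2, DNAJB4, DNAJB6, DNAJC6, DNAJC9, DNAJC10, DNAJC12, DNAJC13 and DNAJC18. DNAJC5B and the dim DNAJC22 had the reverse order (3.03%, background 9.92%).

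HSPH1, the inducible HSP110 and exchange factor of HSP70, had the widest such gap upward among the bright genes. Its siRNA array exceeded the scrambled one by 0.31 in experiment 1 and by 0.16 in experiment 3, both under ATRA. Under DMSO it lay below it, at 9.75 against 9.89. The paired gap of ATRA over DMSO was 0.38 ± 0.12 (SE, 95% interval 0.10 to 0.65, limma adjusted p = 0.998). The spread behind this interval is that between the pairs of experiments 1 and 3, so it does not measure variation under DMSO. In this contrast DMSO and experiment 2 cannot be told apart. DNAJB6, a suppressor of protein aggregation, had a gap of 0.31 and HSPB8 one of 0.37, while DNAJC5B had -0.39. For DNAJB6 the siRNA array read 8.76, 8.57 and 9.25 in experiments 1, 2 and 3, beside 8.60, 8.72 and 9.09 with scrambled RNA. Without the block the interval of the HSPH1 gap was -2.71 to 3.46. The gap was 0.21 for DNAJB4, -0.19 for DNAJC17 and -0.13 for DNAJC27. Among the main chaperones it was 0.16 for HSP90AA1, 0.11 for HSP90AB1, 0.13 for HSPA9, 0.10 for HSPD1, 0.26 for CHORDC1, 0.14 for DNAJA1 and DNAJB1, 0.09 for BAG3, -0.02 for HSPA4, -0.06 for HSPE1, -0.07 for STIP1, -0.14 for HSPA6 and -0.18 for HSPB1.

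ATRA and DMSO were compared on the means of the experiments, 2 against 1. None of the 66 genes passed in limma, 0 had an unadjusted p below 0.05 (background 0.551% higher and 0.637% lower), and 38 lay above 0 (57.6%, background 47.8%). The furthest up were HSPA4L (0.65), HSPH1 (0.65), DNAJB4 (0.64), DNAJC13 (0.48) and DNAJC10 (0.47), and the furthest down DNAJC1 (-1.22), HSPB1 (-0.71), DNAJC16 (-0.50), STIP1 (-0.35) and DNAJC19 (-0.22). The ATRA mean hides 2 unlike experiments. HSPH1, for example, averaged 9.84 in experiment 1, 9.82 in experiment 2 and 11.09 in experiment 3, so that experiment 1 sat with the DMSO cells and not with the other ATRA experiment. Experiment 1 also sat beside experiment 2 for CHORDC1, with 9.72, 9.73 and 10.47, and for HSP90AA1, with 13.08, 13.10 and 13.50 on the probe set used. With arrays in place of experiment means as the replicates, leaving out experiment 1 gave 30 calls, of which 22 were higher, and leaving out experiment 3 gave 0. Such a fit compares single experiments, and its p-values measure only the spread between arrays of an experiment.

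Between experiments 1 and 2, whose actin and GAPDH gaps were alike, few members differed. In a fit of all 6 arrays chosen after seeing the data, 1 of the 66 genes was higher in experiment 1 (1.52%, background 1.11%) and 0 were lower (background 0.228%). At an unadjusted p below 0.05, 4 were higher (background 7.68%) and 3 lower (background 4.35%). The spread behind this fit is that between arrays within experiments, so it compares these experiments, and ATRA and the experiment cannot be told apart in it. Of the 66 genes 31 lay above 0 (47.0%, background 46.2%), and over the 54 bright genes the median difference was 0.00.

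The gene that passed was DNAJB4, an inducible HSP40 of the cytosol. It read 7.65 with the siRNA and 7.49 with scrambled RNA in experiment 1, 7.04 and 7.15 in experiment 2, and 7.93 and 7.87 in experiment 3. All 4 ATRA arrays lay above both DMSO arrays on this probe set. HSPA9, HSPA13, DNAJB14, DNAJC10 and DNAJC13 had the same order of arrays, and its share over all genes was not counted. The ATRA arrays include those of experiment 3, which stood apart. For DNAJB4, experiment 1 exceeded experiment 2 by 0.48 ± 0.08 (SE, 2 arrays each, limma adjusted p = 0.0193). Experiment 3 exceeded experiment 2 by 0.81 ± 0.08 (limma adjusted p = 1.93e-05). The call on experiment 1 was lost without experiment 3 in the fit (adjusted p = 0.104) and with every probe set tested on its own (adjusted p = 0.083). The second DNAJB4 probe set was higher in experiment 1 too, by 0.28 ± 0.11 (SE), but gave -0.25 ± 0.11 (SE) for experiment 3 minus experiment 1. On it the scrambled ATRA array of experiment 3, at 6.68, lay below both DMSO arrays, at 6.74 and 6.86. On experiment means, ATRA over DMSO was 0.64 (adjusted p = 0.995, with 0.40 to 0.81 and adjusted p-values of 7.3e-06 to 1 over the alternatives tried).

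Around it, HSPA13, a microsomal HSP70, came next among the bright genes, with 0.25 ± 0.07 (SE, limma adjusted p = 0.149), and it read 9.30 and 9.23 in experiment 1, 8.97 and 9.05 in experiment 2, and 9.47 and 9.33 in experiment 3. Its second bright probe set went the other way, at -0.17 ± 0.08 (SE), with 8.07 and 8.16 in experiment 1 against 8.29 and 8.28 in experiment 2. DNAJB14, a J protein of the endoplasmic reticulum membrane, differed by 0.18 and DNAJC10, a disulfide reductase of its lumen, by 0.15. HSPB1 lay lowest, at -0.28 ± 0.08 (SE, adjusted p = 0.169), with 10.34 and 10.25 in experiment 1 against 10.63 and 10.52 in experiment 2. HSPB3 (-0.18) and STIP1 (-0.17) followed, and all 6 missed the test. Among known HSF1 targets, HSPH1 differed by 0.03, DNAJB1 by 0.12, BAG3 by 0.05, CHORDC1 by -0.01 and HSP90AA1 by -0.01. HSPA6, not shown to be above background, differed by 0.03. All of these missed the test, each with a 95% interval that includes 0. The interval ran from -0.18 to 0.23 for HSPH1 and from -0.04 to 0.27 for DNAJB1. Other members differed more: DNAJB4 passed, and the intervals of HSPB1 (-0.47 to -0.10) and STIP1 (-0.32 to -0.02) did not include 0.

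Of 7 lists of neighbouring genes, only the endoplasmic reticulum chaperones had calls between experiments 1 and 2, with 2 of 14 higher and 0 lower (backgrounds 1.11% and 0.228%). They were HSPA5, the HSP70 of that compartment (BiP), and DNAJB9, its HSP40 partner, both left out of the member rule. HSPA5 read 11.99 and 11.97 in experiment 1, 11.58 and 11.68 in experiment 2, and 12.08 and 11.99 in experiment 3, with 0.35 ± 0.06 (SE, limma adjusted p = 0.0181) between the first pair. DNAJB9 read 8.47 and 8.34, then 8.12 and 7.91, then 9.40 and 9.25, with 0.39 ± 0.07 (SE, limma adjusted p = 0.0172). For both, all ATRA arrays lay above both DMSO arrays on the probe set used, an order whose share over all genes was not counted. The list's median difference was 0.08, beside -0.01 over all genes. In the other lists 0 genes passed: STUB1, the ubiquitin ligase that works with HSP70, was nearest among the HSP90 cochaperones at -0.26 (adjusted p = 0.0615), followed there by CDC37 at -0.25. In the siRNA comparison and in the difference of siRNA effects, 0 genes of any of the 7 lists passed with or without the block.

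**Figure D2:**
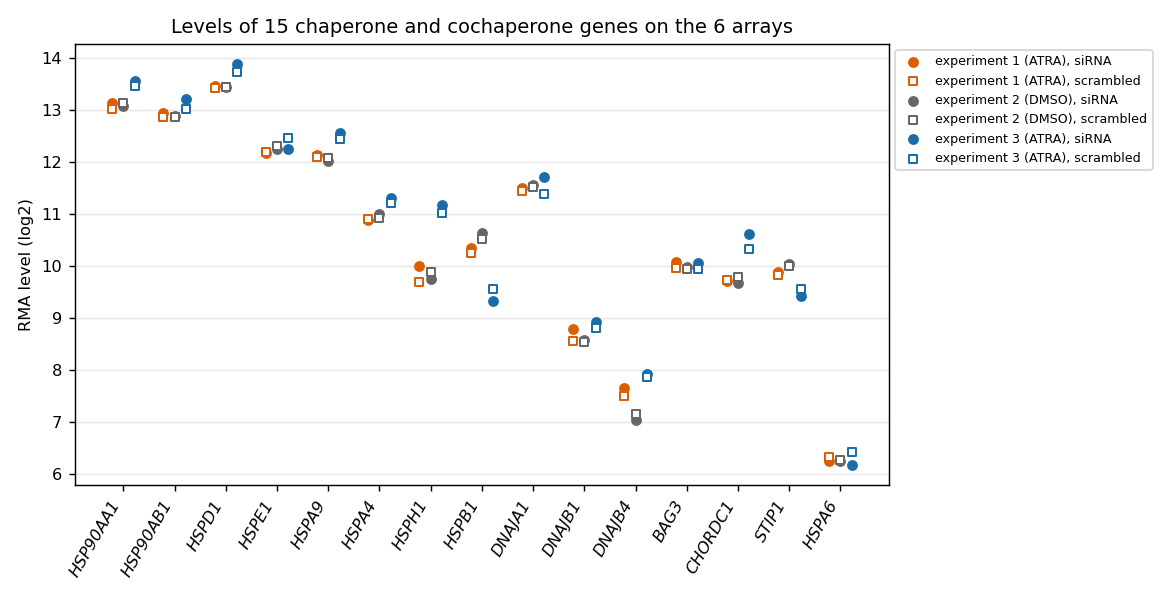
RMA level (log2, vertical axis) of 15 chaperone and cochaperone genes on each of the 6 arrays, filled circles for siRNA and open squares for scrambled RNA, with orange for experiment 1, grey for experiment 2 and blue for experiment 3. The blue points of HSPH1 (11.17 and 11.01) lie above the rest and those of HSPB1 (9.32 and 9.56) below, while DNAJB4 is the gene whose grey points (7.04 and 7.15) lie clearly under both colours.

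Experiments 1 and 3 received the same treatment, so their contrast is between experiments and not between treatments. Experiment 3 had the wider 3' to 5' gap, so this contrast does not give the usual variation between experiments. In limma 25 of the 66 genes were higher in experiment 3 (37.9%, background 21.0%) and 9 lower (13.6%, background 11.7%). Of the 54 bright genes 25 were higher (46.3%, background 30.3%) and 7 lower (13.0%, background 16.2%). Both arrays of experiment 3 lay above all 4 others for 27 of the 66 (40.9%, background 27.8%) and below them for 14 (21.2%, background 20.7%). Above 0 lay 42 of the 66 (63.6%, background 53.0%), and the median difference was 0.08 over the members and 0.01 over all genes. Against experiment 2 the counts were also 25 higher and 9 lower (backgrounds 22.6% and 13.7%), with 42 above 0 (background 48.8%), in a contrast that shares the arrays of experiment 3. The direction of some of these calls depended on the probe set, as described further on. The part of the wider 3' to 5' gap of experiment 3 in these differences was not tested.

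HSPH1 was furthest up. It read 10.00 and 9.69 in experiment 1, 9.75 and 9.89 in experiment 2, and 11.17 and 11.01 in experiment 3, a difference of 1.25 ± 0.09 (SE, 2 arrays each, limma adjusted p = 4e-06). The HSP110 protein HSPA4L followed with 1.04 ± 0.08 (SE), from 7.63 and 7.42 to 8.56 and 8.56, and HSPA4 rose by 0.37, so all 3 HSP110 genes passed in this direction on their brightest probe sets. CHORDC1, an HSP90 cochaperone that is induced by heat, went from 9.72 and 9.72 to 10.61 and 10.32, or 0.75 ± 0.09 (SE). HSP90AA1 rose by 0.42, HSP90AB1 by 0.20, HSPD1 by 0.36, HSPE1 by 0.18 and HSPA9 by 0.38. Of these, HSP90AA1, HSP90AB1, HSPA4 and HSPH1 had another bright probe set that was called lower. Further bright probe sets of HSPD1 gave -0.35, 1.18 and -0.16 and those of HSPA9 -0.075 and 0.44. On the mean of all probe sets the calls of HSPD1 (0.0083) and HSPA9 (0.14) were lost. Over 15 alternatives the call of HSPE1 held in 5 (adjusted p up to 0.568) and that of HSP90AB1 in 9.

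The remaining higher genes were all J proteins. Furthest up among them were DNAJC13 (0.75), which acts on endosomes, DNAJC10 (0.65), the mitochondrial DNAJA3 (0.61), the clathrin uncoating factor DNAJC6 (0.58) and the ribosome-bound DNAJC2 (0.52). DNAJC24, DNAJB6 and DNAJB14 rose by 0.48 to 0.49. DNAJC14, DNAJC30, DNAJC5, DNAJC27, DNAJB4, DNAJC11, DNAJC7 and DNAJC12 rose by 0.24 to 0.38. Other bright probe sets went the other way for DNAJC12 (-0.61, called lower, and -0.04), DNAJC14 (-0.23), DNAJB4 (-0.25) and DNAJC11 (-0.05). That of DNAJC5 gave 0.19. DNAJA1 (0.08) and DNAJB1 (0.20, adjusted p = 0.057) missed the test, while their second bright probe sets gave 0.65, which passed, and -0.23, which did not. The test was also missed by BAG3 (-0.01), which read 10.07 and 9.96 in experiment 1 and 10.06 and 9.95 in experiment 3.

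Of the 9 lower genes, DNAJC1, a membrane protein of the endoplasmic reticulum, was furthest down, at -2.28 ± 0.06 (SE, limma adjusted p = 5.86e-09). It read 11.49 and 11.44 in experiment 1, 11.51 and 11.58 in experiment 2, and 9.18 and 9.19 in experiment 3. HSPB1 fell by 0.85 on the log2 scale, from 10.34 and 10.25 to 9.32 and 9.56, DNAJC16 by 0.80, the import motor subunit DNAJC19 by 0.47 and STIP1 by 0.36. These are values of the brightest probe set: the other bright probe sets of DNAJC16 (0.083), DNAJC19 (0.032) and DNAJA2 (0.14) were not lower. DNAJB11 of the endoplasmic reticulum fell by 0.26 and the cytosolic DNAJA2 by 0.19. The remaining pair, DNAJC28 and HSPA12A, was dim. The call of DNAJA2 held in 4 of 15 alternatives, that of HSPA12A in 4 of 14 and that of DNAJC28 in 9 of 14, and all 3 were lost without the siRNA term.

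**Figure D3:**
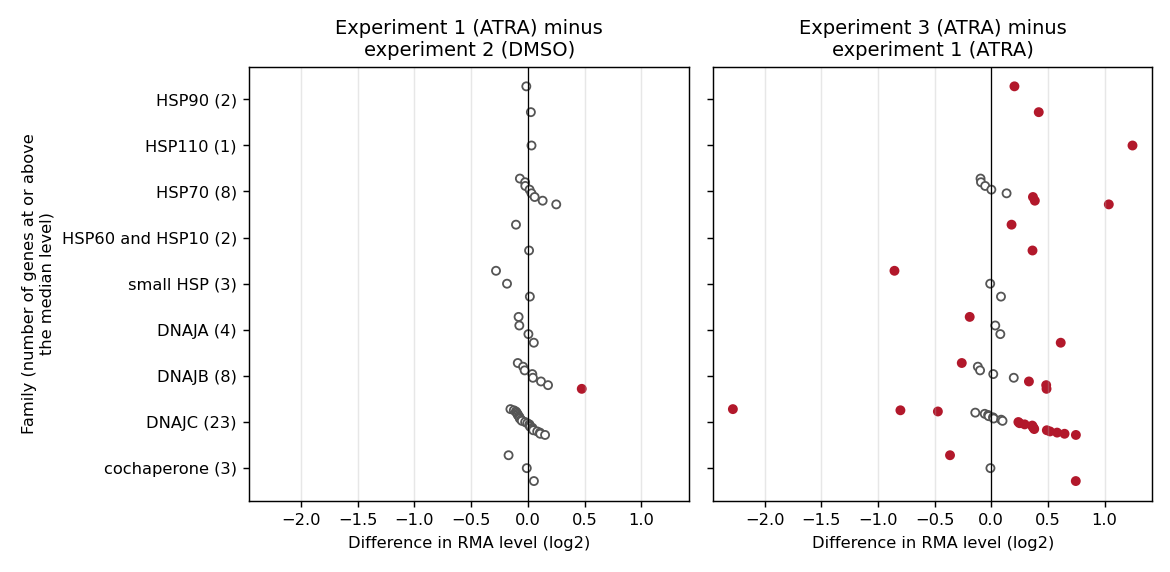
Difference in RMA level (log2, horizontal axis) between experiments 1 and 2 (left) and between experiments 3 and 1 (right) for the 54 bright genes, 1 point per gene, grouped by family on the vertical axis, with filled red points for those past the adjusted threshold. At left 1 point, DNAJB4 at 0.48, is filled, and at right 32 are, from DNAJC1 at -2.28 to HSPH1 at 1.25.

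Probe sets of one gene lay further apart in experiment 3 against 1 than in experiment 1 against 2 at the median, with exceptions such as HSPA13 (0.18 against 0.42). In a fit of every probe set, of 159 probe sets, 39 were higher in experiment 3 than in experiment 1 (24.5%, background 14.7%) and 23 lower (14.5%, background 11.9%), while 0 passed between experiments 1 and 2 (backgrounds 0.309% higher and 0.0659% lower). With 2 or more bright probe sets there were 32 members. In 6 of them, 1 probe set was called higher and another lower in experiment 3 (18.8%, background 18.3%): HSP90AA1, HSP90AB1, HSPA4, HSPH1, DNAJB14 and DNAJC12. The probe sets lay over 1 apart in 8 members in experiment 3 against 1 (25.0%, background 19.9%) and in 0 in experiment 1 against 2 (background 0.0346%). The median distance was 0.58 among the members and 0.44 among all such genes in the first of these contrasts, and 0.11 and 0.10 in the second. The share of members with opposite calls was near its background, while the share of probe sets called higher was above its own.

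HSP90AA1 had 4 bright probe sets. In experiment 3 they differed from experiment 1 by 0.42 ± 0.06, 0.52 ± 0.05, -1.15 ± 0.06 and -0.80 ± 0.09 (SE), and all 4 passed. The third of them read 13.34 and 13.27 in experiment 1, 13.34 and 13.34 in experiment 2, and 12.07 and 12.23 in experiment 3. It had the highest mean in experiments 1 and 2, so with the probe set chosen on those experiments the gene was lower in experiment 3, by -1.15.

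For HSP90AB1 the probe sets gave 0.20 ± 0.06, -0.14 ± 0.06 and -2.92 ± 0.07 (SE). The last read 12.35 and 12.29 in experiment 1, 12.30 and 12.41 in experiment 2, and 9.45 and 9.35 in experiment 3. HSPH1 gave 1.25 ± 0.10, -1.02 ± 0.11 and 1.17 ± 0.10 (SE). DNAJB14 gave 0.48, -0.68 and -2.10, and DNAJC1 gave -2.28, -0.12 and -2.49, of which -0.12 missed the test. STIP1 gave -0.36 and -1.93, both lower. Between experiments 1 and 2 no pair of probe sets of HSP90AA1 or of these 5 genes lay more than 0.18 apart. With the mean of all probe sets of each gene, 26 of the 66 passed between experiments 3 and 1, of which 14 were higher, in place of 25 higher among 34. HSP90AA1 (-0.25), HSP90AB1 (-0.95), HSPA4 (-0.05) and DNAJB1 (-0.02) then had the opposite sign.

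**Figure D4:**
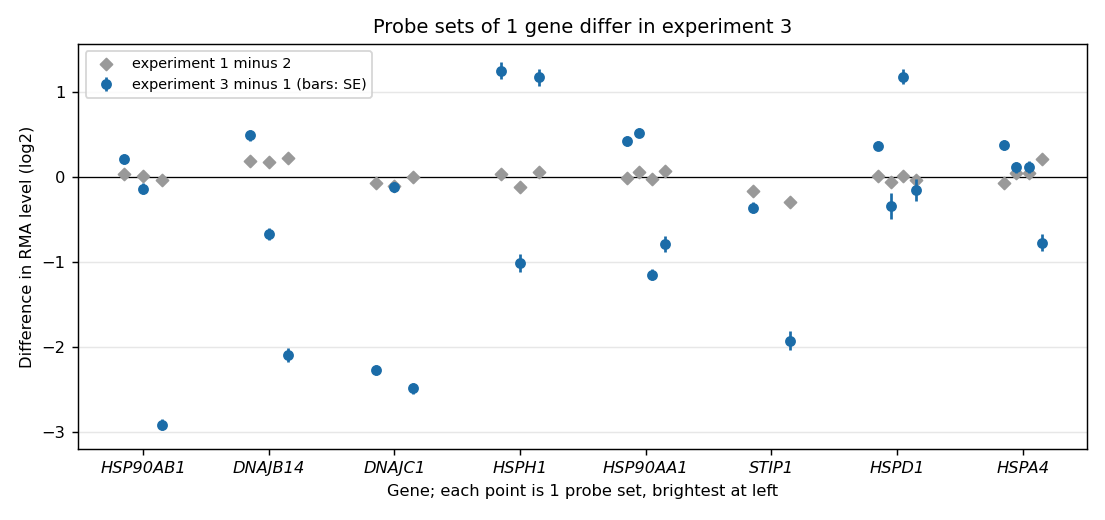
Difference in RMA level (log2, vertical axis) for the bright probe sets of 8 genes, 1 point per probe set with the brightest at left, as blue circles with bars of 1 SE for experiment 3 minus 1 and grey diamonds for experiment 1 minus 2. The grey diamonds of a gene lie together near 0, while the blue circles of HSP90AB1 run from 0.20 to -2.92 and those of HSPH1 from 1.25 to -1.02.

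The neighbouring lists had calls in both directions between experiments 3 and 1 too, to be read beside 21.0% higher and 11.7% lower over all genes. Of the heat shock factors and their regulators, 1 of 8 was higher, HSF1 by 0.23, and 1 lower, HSBP1, a negative regulator of HSF1, by -0.48. HSF1 read 8.03 and 8.04 in experiment 1, 8.11 and 8.09 in experiment 2, and 8.22 and 8.30 in experiment 3. Among HSP90 cochaperones 9 of 17 were higher and 3 lower, with the immunophilin FKBP5 at 0.64 and the kinase adaptor CDC37 at -0.60. Among HSP70 exchange factors and BAG proteins 7 of 10 were higher and 0 lower, with BAG1 at 0.58 and the mitochondrial GRPEL1 at 0.41.

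The chaperonin TRiC and prefoldin had 6 of 13 higher and 4 lower (CCT5 at 0.35, PFDN1 at -0.46), and mitochondrial chaperones and proteases 5 of 12 higher and 2 lower (AFG3L2 at 0.51, BCS1L at 0.46). Of the endoplasmic reticulum chaperones 4 of 14 were higher, DNAJB9 by 0.92, and 2 lower, HSP90B1 by -2.23. Other stress-inducible proteins had 3 of 15 higher, near the background, and 5 lower, with DEDD2 at 0.54 and the autophagy receptor SQSTM1 at -0.62. The medians of the 7 lists in this contrast ran from -0.03 for the heat shock factors to 0.28 for the exchange factors, beside 0.01 over all genes.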

How the data were processed

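Total RNA from 6 K562 cultures was hybridised to Affymetrix HG-U133 Plus 2.0 arrays, 1 each. The deposited values are log2 levels that the authors made with the RMA algorithm, per the submitters' processing notes and the series' design text. Not given in the sources used here are its version and settings. Of 54675 probe sets, the platform annotation gave 1 gene for 41091, several for 1801 and none for 11721, and 62 were controls. Each of 19775 genes took the probe set of highest mean, with no filter on dim signals. Differences were fitted with limma 3.58.1 (R 4.3.3; lmFit, then eBayes with a trend on intensity). Benjamini-Hochberg adjusted p-values over the 19775 genes were called below 0.05, and the fits were tested on simulated data. The siRNA fit had treatment as a covariate, and the comparison of experiments 3 and 1 had experiment and siRNA terms. The number of arrays limits the precision, and intervals are unadjusted.

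The experiment number pairs the samples: the labels name independent experiments. Across genes, same-numbered arrays deviated from their groups' means with correlations of 0.679, 0.795 and 0.883. P-values of contrasts between single experiments measure only the spread between arrays of an experiment. No 2 arrays held identical values. The members and the gene lists were chosen with earlier results of these data known. Named with values were a fixed set of main chaperones, members past the threshold (up to 10 each way), the 5 bright members furthest up and down per comparison, those with disagreeing probe sets, and up to 2 genes per neighbouring list by smallest p. Motif counts used RefSeq promoters of GRCh38.p14. Alternatives changed the block, the probe set rule, the scaling, the dim genes, the intensity trend and the arrays left out.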

Additional observations from a re-analysis of the deposited data

How the results depend on the processing

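The counts of 0 called genes for the siRNA and for the difference of siRNA effects were the same in every alternative run, the replicate block included (0 to 0 when arrays or experiments were left out). The count of 34 between experiments 3 and 1 lay between 23 and 34 over all alternatives, 23 to 31 with arrays left out. ATRA against DMSO gave 0 called genes except for 30 without experiment 1 (0 to 30 with arrays or experiments left out) and, in contrasts chosen after seeing the data, 1 for experiment 1 against 2 and 34 for experiment 3 against 2. The fits without experiment 1 or experiment 3 took arrays and not experiment means as the replicates, so they compare single experiments. With the probe set chosen on experiments 1 and 2, also added later, HSP90AA1 turned to -0.032 for the siRNA, -0.048 for the difference of effects, -0.61 for ATRA and -1.15 for experiment 3 against 1. With the mean of all probe sets, STIP1 turned to 0.099 for the siRNA. DNAJC27 (0.052), HSPA4 (0.089) and STIP1 (0.0062) turned for the difference of effects, DNAJA1 (0.15), HSP90AA1 (-0.11), HSP90AB1 (-0.48) and HSPA6 (-0.015) for ATRA, and DNAJB1 (-0.017), HSP90AA1 (-0.25), HSP90AB1 (-0.95) and HSPA4 (-0.048) for experiment 3 against 1. Shifting arrays to one 75th percentile turned HSPA6 to -0.0093 for ATRA. Experiment 1 against 2 turned CHORDC1 (-0.0096), DNAJC19 (0.019), HSP90AA1 (-0.014) and HSPA4 (-0.070), and experiment 3 against 2 turned DNAJA1 (0.0045) and HSPE1 (0.074). With the replicate block and without experiment 3, CHORDC1 (-0.062), HSPA9 (-0.010), HSPB1 (0.098) and STIP1 (0.047) turned for the siRNA. Of these, only HSP90AA1, HSP90AB1 and HSPA4 between experiments 3 and 1 had passed the test, and the cause was not tested. Among single genes, 48 values between experiments 3 and 1 lost a call with no change of sign and 4 gained one.

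The siRNA fits and those of the difference of effects had no replicate block here, so leaving out 1 array broke its pair. Differences between experiments then entered the value. For DNAJC16, whose siRNA range below crosses 0, the 3 pairs differed by 0.13, 0.13 and 0.15. Leaving out arrays or experiments gave values on both sides of 0 for some genes, none of which had passed the test. For the siRNA they ran from -0.23 to 0.28 for CHORDC1, -0.093 to 0.37 for DNAJC16, -0.085 to 0.16 for HSP90AA1, -0.071 to 0.18 for HSPA4, -0.10 to 0.14 for HSPA9, -0.29 to 0.29 for HSPB1, -0.071 to 0.17 for HSPD1, -0.30 to 0.45 for HSPH1 and -0.14 to 0.13 for STIP1. For the difference of effects they ran from -0.18 to 0.70 for CHORDC1, -0.38 to 0.12 for DNAJC27, -0.055 to 0.38 for HSP90AA1, -0.017 to 0.24 for HSP90AB1, -0.24 to 0.19 for HSPA4, -0.085 to 0.34 for HSPA9, -0.69 to 0.33 for HSPB1, -0.12 to 0.31 for HSPD1, -0.20 to 0.081 for HSPE1, -0.29 to 1.04 for HSPH1 and -0.30 to 0.16 for STIP1. For ATRA they ran from -0.0096 to 0.74 for CHORDC1, -0.11 to 0.043 for DNAJA1, -0.45 to 0.019 for DNAJC19, -0.014 to 0.41 for HSP90AA1, -0.070 to 0.30 for HSPA4, -0.029 to 0.094 for HSPA6 and -0.10 to 0.074 for HSPE1, and between experiments 3 and 1 from -0.033 to 0.018 for BAG3, -0.051 to 0.21 for DNAJA1 and -0.096 to 0.097 for HSPA6.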
